A study of Mus musculus with 8 samples.

Results

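BCL2 family transcripts were followed in tumor cells sorted for the Notch ligand Dll1. The members are 10 genes named by symbol, namely Bcl2, Bcl2l1, Mcl1, Bax, Bak1, Bcl2l11, Bid, Bad, Pmaip1 and Bbc3, out of 53697 genes listed in the deposited count table, and each of the 10 had counts in every library and passed the filter on low counts. They were selected on family membership and not on a threshold, but with earlier results of these data in view, namely the differences between Dll1+ and Dll1- cells and between the reporter lines, so that the values given here are descriptions. The proteins of this family decide whether the outer membrane of the mitochondrion stays intact. The survival proteins BCL2, BCL-XL and MCL1 hold the pore-forming effectors BAX and BAK in check, and the BH3-only proteins tip the balance by binding the survival proteins or by activating the effectors directly. In the mammary gland the same proteins govern the loss of milk-producing cells at weaning, and tumor cells with a large reserve of survival proteins can withstand chemotherapy.

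All mice were MMTV-PyMT animals on a C57BL/6 background, in which the mouse mammary tumor virus promoter drives the polyoma middle T antigen in the mammary epithelium. Mice 1 and 2 were PyMT-Dll1GFP, with GFP knocked in at Dll1, and mice 3 and 4 were PyMT-Dll1mCh, with a BAC-based mCherry reporter of Dll1. Spontaneous tumors were digested, cells positive for CD45, CD31 or Ter119 were removed, and the remaining cells were sorted by the reporter, so that each mouse gave 1 Dll1+ and 1 Dll1- library (8 libraries, 4 mice, no drug treatment). Mouse ages were not given in the sources used here, and reporter and mouse line cannot be told apart.

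The libraries held 27301396 to 123907626 estimated counts. Dll1 itself, the gene behind the sort, was higher in Dll1+ cells of every mouse, going from 7.61, 13.7, 34.8 and 50.3 CPM (counts scaled by library size, after TMM normalization) in the Dll1- cells of mice 1 to 4 to 87.5, 138, 204 and 250 CPM in the Dll1+ cells. Epithelial markers were abundant in every library, with 8 genes summing to 5725 to 9307 CPM. Markers of the cell types that the sort removes or leaves behind stood apart in the Dll1- libraries of the PyMT-Dll1mCh mice. The 10 fibroblast and pericyte markers summed to 8675 and 24210 CPM there against 3727 and 3862 CPM in the matched Dll1+ libraries, and to 1260 to 1466 CPM in the 4 PyMT-Dll1GFP libraries. The 12 immune markers summed to 534 and 559 CPM against 251 and 256 CPM, and to 93.2 to 123 CPM in PyMT-Dll1GFP libraries, while the 8 endothelial markers summed to 173 and 387 CPM against 96.8 and 92.1 CPM, and to 50.6 to 56.2 CPM. The 6 erythroid markers summed to 181 and 87.4 CPM against 68.2 and 34.8 CPM, and to 6.03 to 14.97 CPM. By edgeR's test 9 of 11 tested immune, 6 of 10 fibroblast and pericyte, 3 of 8 endothelial and 4 of 5 tested erythroid markers were lower in Dll1+ cells of PyMT-Dll1mCh mice, where 6.25% of all genes were lower. In PyMT-Dll1GFP mice 1 of these markers was lower, an erythroid one, where 4.84% of all genes were. For the difference between the lines, 1 of 11 immune, 1 of 10 fibroblast and pericyte, 0 of 8 endothelial and 0 of 5 erythroid markers passed, and 0.0710% of all genes. CD45 (Ptprc) and CD31 (Pecam1) were above 0 in every library, at 2.88 to 12.8 and 13.8 to 98.2 CPM, against 899 to 1240 CPM for Epcam.

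Per kilobase of the longest coding transcript, Mcl1 was the most abundant member and Pmaip1 the least. The mean level over the 8 libraries was 149 ± 24.8 CPM per kb for Mcl1, 75.3 ± 20.4 for Bax and 53.3 ± 8.45 for Bcl2l1 (SD, n = 8 libraries). Bak1 followed at 25.5 ± 6.10 CPM per kb. Bad, Bcl2l11 and Bid came next at 18.0 ± 3.24, 17.1 ± 6.24 and 16.2 ± 4.95 CPM per kb. These pooled means lay within their spread, but the order of Bad and Bcl2l11 reversed between the lines. Bcl2l11 was above Bad in every PyMT-Dll1GFP library (means of 22.31 and 15.1 CPM per kb). It was below Bad in every PyMT-Dll1mCh library (means of 11.85 and 20.82 CPM per kb). Bbc3 had 12.4 ± 2.46, Bcl2 6.58 ± 3.56 and Pmaip1 2.22 ± 1.23 CPM per kb. Mcl1 alone held 29.4% to 48.5% of the summed per-kb level of the family in a library, and Bcl2 held 0.709% to 3.18%. Counts were summed over the isoforms of a gene, so that the long and short products of Bcl2l1 and Mcl1, which can have opposite functions, and the isoforms of Bcl2l11 were not separated.

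**Figure D1:**
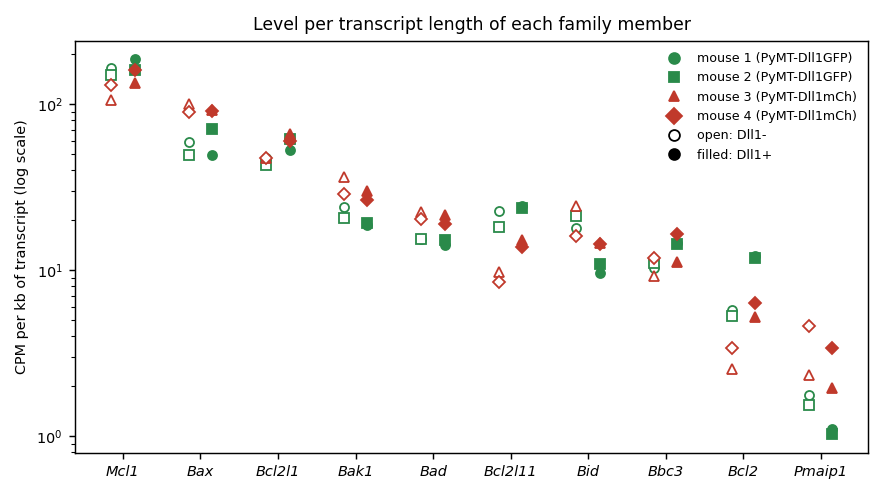
Level of each member in each library in CPM per kb of the longest coding transcript (log scale), ordered by the mean over 8 libraries. Open symbols are Dll1- and filled symbols Dll1+ cells, green for PyMT-Dll1GFP and red for PyMT-Dll1mCh mice; the means run from 149 for Mcl1 to 2.22 for Pmaip1.

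Promoter sequence of 9 members was available from RefSeq (GRCm38.p6), as 15 windows of 300 bases that run from 250 bases before to 50 bases after an annotated start. The windows were searched on both strands for the 10-letter NF-κB consensus and for letters bound by the Notch partner RBPJ (TGGGAA). These were chosen since the study asked about Notch and NF-κB signaling in Dll1+ cells. Letters bound by AP-1 (TGANTCA) and by E2F (TTTCGCGC) were searched as well. The NF-κB consensus occurred in 2 windows, 1 each of Bcl2l1 and Bbc3, and in 8.46% of 32851 windows of all genes. RBPJ letters occurred in 3 windows, of Bax and Bad (25.6% of all windows), E2F letters in 1 window, of Bcl2l1 (0.323%), and AP-1 letters in 0 of the 15 (7.81%). The members' windows had 49.3% to 78.0% G and C, against a median of 52.7% over all windows. A match describes letters and is not a binding site. The NF-κB matches are shown because the study asked about this factor, with the matching bases in capitals, each read 5′ to 3′ along the strand of its gene.
Bcl2l1, chr2:152830940-152830967, minus strand, match from position -242 relative to the start: tgtttgtgGGGGGTCTCCagcatacgcc
Bbc3, chr7:16309436-16309465, plus strand, match from position -137: tctggctgccGGGAAACCCCccgcgccgag
The Bbc3 stretch holds another match, on the opposite strand, that overlaps the printed one and starts at position -136.

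Dll1+ and Dll1- cells of the same mouse were then compared, with all 8 libraries in 1 model and the mouse as a block. At an adjusted p under 0.05 by edgeR's quasi-likelihood test, 4 of the 10 members passed with more RNA in Dll1+ cells (Bcl2, Bcl2l1, Bcl2l11 and Bbc3), as did 6.98% of all 18322 tested genes, and 1 passed with less (Bid), as did 7.04%. Since the comparison was known when the members were chosen, nothing is read from these counts. The median log2 difference was 0.14 over the members and -0.00068 over all tested genes. Among the members, the survival genes had positive values throughout and the effectors lay near or below 0. The BH3-only members were divided, with Bcl2l11 and Bbc3 above 0 and Bid, Bad and Pmaip1 below it. Higher levels in Dll1+ cells in all 4 mice were seen for Bcl2, Bcl2l1, Mcl1, Bcl2l11 and Bbc3 (21.4% of all tested genes), and lower levels in all 4 mice for Bak1, Bid, Bad and Pmaip1 (19.9%).

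**Figure D2:**
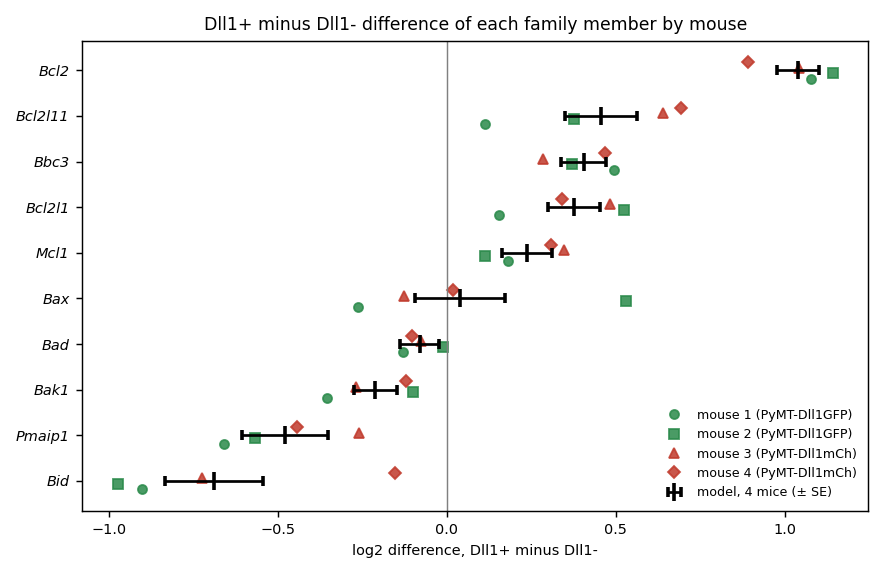
Log2 difference between the Dll1+ and the Dll1- library of each mouse (symbols) and the estimate over 4 mice with its SE (black), per member. Bcl2 lies between 0.89 and 1.14 in all 4 mice, Bax falls on both sides of 0, and Bid reaches from -0.97 in mouse 2 to -0.15 in mouse 4.

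Bcl2 (ENSMUSG00000057329.7, chromosome 1, 106538178 to 106714274, minus strand of GRCm38), the founding survival gene of the family, roughly doubled in every mouse. Its level went from 41.6 to 87.7 CPM in mouse 1, from 38.4 to 84.8 CPM in mouse 2, from 18.4 to 37.9 CPM in mouse 3 and from 24.5 to 45.5 CPM in mouse 4. Within each reporter the Dll1+ libraries lay above the Dll1- libraries, but the Dll1+ libraries of the PyMT-Dll1mCh mice were at the level of the Dll1- libraries of the PyMT-Dll1GFP mice. The log2 difference over 4 mice was 1.04 (SE 0.0629, adjusted p = 0.00534 by edgeR), with 1.08, 1.14, 1.04 and 0.89 in mice 1 to 4, and its p ranked 8 among the 18322 genes. In a bulk sample a larger number of cells that express a gene and more RNA per cell cannot be told apart. The difference was 1.11 in PyMT-Dll1GFP and 0.97 in PyMT-Dll1mCh mice. From Dll1- to Dll1+ cells the fibroblast and pericyte sum went from 1365 to 1260 CPM in mouse 1 and from 1466 to 1329 CPM in mouse 2. It went from 8675 to 3727 CPM in mouse 3 and from 24210 to 3862 CPM in mouse 4. The part of fibroblasts and pericytes in the Bcl2 difference was not tested. Leaving out any mouse left Bcl2 past the threshold over the remaining 3, with adjusted p from 0.00586 to 0.0406.

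Bcl2l1 (ENSMUSG00000007659.18, chromosome 2, 152780668 to 152831728, minus strand), which encodes BCL-XL, rose by a smaller amount. The Dll1- libraries of mice 1 to 4 had 122, 111, 122 and 122 CPM, and the Dll1+ libraries 136, 159, 170 and 154 CPM. All 4 Dll1+ libraries lay above all 4 Dll1- libraries, which held for 2.74% of the tested genes. The log2 difference was 0.38 (SE 0.0766, adjusted p = 0.0308 by edgeR), smallest in mouse 1 at 0.16 and largest in mouse 2 at 0.52. Without mouse 1, 2 or 3 the adjusted p was 0.0533, 0.0936 or 0.121, with log2 differences of 0.45, 0.33 and 0.34. Mcl1 (ENSMUSG00000038612.16, chromosome 3, 95658788 to 95663176, plus strand), whose short-lived protein guards mammary epithelial cells, was higher in Dll1+ cells of each mouse without passing the threshold in edgeR. Its levels were 561, 509, 362 and 445 CPM in Dll1- cells and 636, 550, 461 and 552 CPM in Dll1+ cells of mice 1 to 4, with a log2 difference of 0.24 (SE 0.0731, adjusted p = 0.0818 by edgeR, 0.00101 by DESeq2's Wald test). The groups overlapped, with mouse 3 lowest and mouse 1 highest in both.

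**Figure D3:**
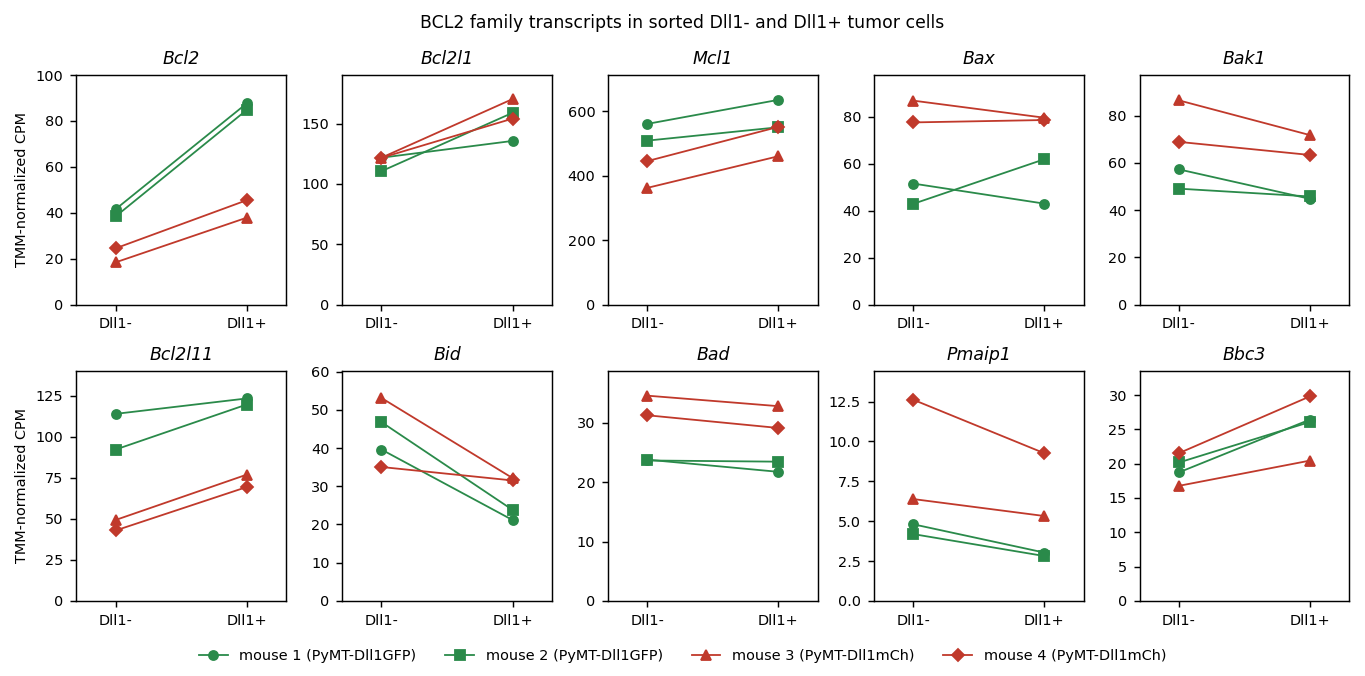
TMM-normalized CPM of the 10 members in the Dll1- and Dll1+ library of each mouse, joined by a line; axes start at 0. Bcl2 is higher in Dll1+ cells of all 4 mice and Bid differs least in mouse 4, while PyMT-Dll1mCh mice (red) lie above PyMT-Dll1GFP mice (green) for Bax, Bak1, Bad and Pmaip1 and below them for Bcl2l11.

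Neither pore-forming effector passed between the sorted cells in edgeR's test, while DESeq2 called Bak1. Bax (ENSMUSG00000003873.11, chromosome 7, 45461697 to 45466898, minus strand) had 51.6, 42.9, 86.9 and 77.6 CPM in the Dll1- and 43.0, 61.9, 79.6 and 78.6 CPM in the Dll1+ cells of mice 1 to 4. It was higher in Dll1+ cells in 2 mice and lower in 2, and the log2 difference over 4 mice was 0.039 (SE 0.133, adjusted p = 0.863). The mice of the PyMT-Dll1GFP line moved in opposite directions, with -0.26 in mouse 1 and 0.53 in mouse 2, and the estimate was -0.12 without mouse 2. Bak1 (ENSMUSG00000057789.13, chromosome 17, 27019810 to 27029009, minus strand) had 57.3, 49.1, 86.5 and 68.9 CPM in Dll1- cells and 44.8, 45.8, 71.8 and 63.4 CPM in Dll1+ cells. All 4 mice had less Bak1 in Dll1+ cells, but its log2 difference of -0.21 (SE 0.0637) did not pass the threshold by edgeR (adjusted p = 0.0781) and did by DESeq2 (0.024).

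Among the BH3-only genes, Bcl2l11 (ENSMUSG00000027381.16, chromosome 2, 128126038 to 128162547, plus strand), which encodes BIM, was higher in Dll1+ cells. Its Dll1- libraries had 114, 92.3, 49.3 and 42.9 CPM and its Dll1+ libraries 123, 120, 77.0 and 69.4 CPM in mice 1 to 4. The log2 difference over 4 mice was 0.46 (SE 0.106, adjusted p = 0.0433). It was 0.11 and 0.38 in the PyMT-Dll1GFP mice and 0.64 and 0.69 in the PyMT-Dll1mCh mice, where the marker sums of other cell types also differed between the sorted cells, and the part of those cells in the result was not tested. Leaving out mouse 1, 2, 3 or 4 gave adjusted p values of 0.0511, 0.102, 0.149 and 0.0693, with log2 differences of 0.57, 0.48, 0.39 and 0.38. Bbc3 (ENSMUSG00000002083.13, chromosome 7, 16308393 to 16318205, plus strand), the p53 target PUMA, had 18.7, 20.2, 16.8 and 21.5 CPM in Dll1- cells and 26.4, 26.1, 20.5 and 29.8 CPM in Dll1+ cells. The increase was even between mice, at log2 differences of 0.50, 0.37, 0.29 and 0.47, and 0.40 over the 4 (SE 0.0676, adjusted p = 0.0185). Without mouse 1, 2 or 3 the adjusted p of Bbc3 was 0.0816, 0.0672 or 0.0674.

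Bid (ENSMUSG00000004446.12, chromosome 6, 120891930 to 120916853, minus strand), which links caspase-8 to the mitochondrion, was the member edgeR called lower over 4 mice with the main filter. Mice 1 to 4 had 39.6, 46.8, 53.1 and 35.0 CPM in Dll1- cells and 21.2, 23.8, 32.1 and 31.5 CPM in Dll1+ cells. All 4 Dll1+ libraries lay below all 4 Dll1- libraries, which held for 3.33% of the tested genes. The log2 difference was -0.69 (SE 0.145, adjusted p = 0.036), with -0.90, -0.97 and -0.72 in mice 1 to 3 and -0.15 in mouse 4. Without mouse 1, 2 or 3 the adjusted p rose to 0.125, 0.102 or 0.136, and without mouse 4 it was 0.00698. Exons of Bid share 628 bases with Bcl2l13 on the other strand, as exons of Bak1 share 437 with Ggnbp1 and exons of Bad 524 with Gpr137. The kit marks strand, but its use in counting was not given in the sources used here, so that reads in these stretches may be split between the genes.

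Bad and Pmaip1 did not pass the threshold in edgeR's test with the main filter. Bad (ENSMUSG00000024959.13, chromosome 19, 6941861 to 6951899, plus strand), which is switched off by survival kinases, ranged from 23.6 to 34.6 CPM in Dll1- and from 21.7 to 32.8 CPM in Dll1+ cells, with a log2 difference of -0.080 (SE 0.0582, adjusted p = 0.381). Pmaip1 (ENSMUSG00000024521.7), the p53 target NOXA that binds MCL1, was the rarest member and ranged from 4.19 to 12.6 CPM in Dll1- and from 2.82 to 9.27 CPM in Dll1+ cells. It was lower in Dll1+ cells in 4 of 4 mice, with -0.66, -0.57, -0.26 and -0.44 on the log2 scale, and -0.48 over the 4 (SE 0.127, adjusted p = 0.057). Pmaip1 passed by DESeq2 (adjusted p = 0.0128) and by edgeR when at least 10 counts were required in every library (0.0461).

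Ratios of counts within a library do not depend on the scaling between libraries, although they carry the lengths of the genes. The ratios are given without a test. A two-sided exact permutation test on 4 pairs cannot go below p = 0.125. The Bcl2 to Bax ratio was 0.806, 0.896, 0.212 and 0.316 in the Dll1- and 2.04, 1.37, 0.476 and 0.579 in the Dll1+ cells of mice 1 to 4, a higher value after sorting for Dll1 in 4 of 4 mice. The mean log2 difference was 0.998 ± 0.32 (SD, n = 4 mice), with 0.98 in PyMT-Dll1GFP and 1.02 in PyMT-Dll1mCh mice. It was 1.25 ± 0.18 for Bcl2 to Bak1 and 1.73 ± 0.48 for Bcl2 to Bid, higher in 4 of 4 mice each. That direction follows from the higher Bcl2 and the lower Bak1 and Bid in every mouse. For Bcl2l1 to Bax it was 0.34 ± 0.26, with -0.0051 in mouse 2. The Mcl1 to Bax ratio was higher in Dll1+ cells of mice 1, 3 and 4 and lower in mouse 2, with a mean log2 difference of 0.20 ± 0.42, smaller than its spread. The Bcl2 to Bcl2l11 ratio was higher in 4 of 4 mice but unevenly, by 0.96 and 0.77 in PyMT-Dll1GFP and by 0.40 and 0.20 in PyMT-Dll1mCh mice.

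**Figure D4:**
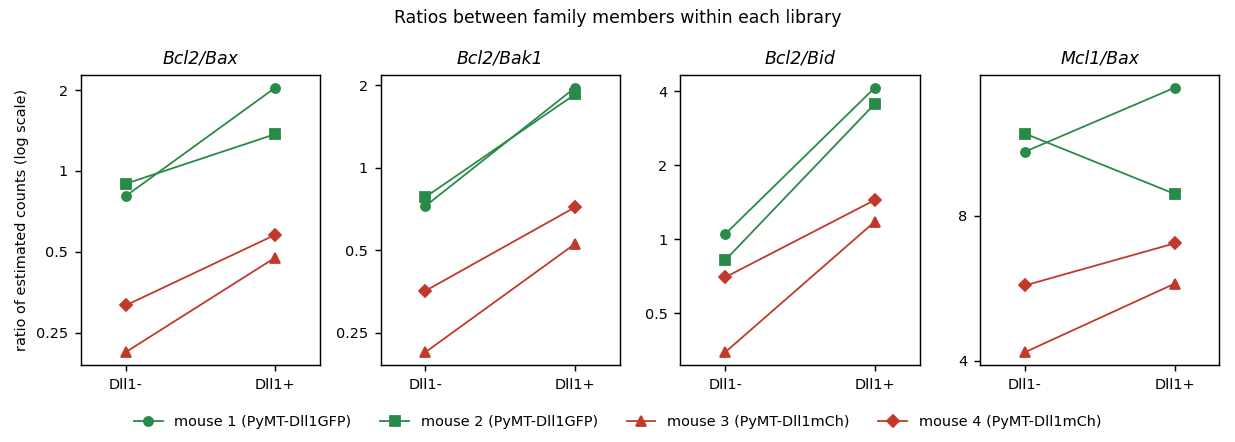
Ratio of estimated counts between pairs of members within each library (log scale), joined per mouse. Bcl2 to Bax, Bak1 and Bid is higher in Dll1+ cells of all 4 mice, Mcl1 to Bax is lower in mouse 2, and in Dll1- cells these 3 Bcl2 ratios are lower in PyMT-Dll1mCh (red) than in PyMT-Dll1GFP mice (green).

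When each reporter was given its own effect in the model, fewer members passed. In PyMT-Dll1GFP mice Bcl2 was higher (log2 difference 1.11, SE 0.0847, adjusted p = 0.00289) and Bid lower (-0.94, SE 0.147, adjusted p = 0.0181) by edgeR's test, where 4.29% and 4.84% of all genes passed in these directions. In mice 1 and 2 the log2 differences were 1.08 and 1.14 for Bcl2 and -0.90 and -0.97 for Bid. In PyMT-Dll1mCh mice Bcl2 (0.97, SE 0.0847, adjusted p = 0.00705) and Bcl2l11 (0.67, SE 0.0880, adjusted p = 0.012) were higher and no member was lower, where 5.51% and 6.25% of all genes passed. In mice 3 and 4 the log2 differences were 1.04 and 0.89 for Bcl2, 0.64 and 0.69 for Bcl2l11, and -0.72 and -0.15 for Bid. Leaving out a mouse leaves 1 mouse in its line. The spread then comes from the other line, so that such a fit cannot check these calls. Fitted on the 4 PyMT-Dll1mCh libraries alone, Bcl2 and Bcl2l11 each had an adjusted p of 0.0684.

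The difference between the reporter effects was itself tested. None of the 10 members passed by edgeR, with 1 at an unadjusted p under 0.05, or by DESeq2's Wald test, and 0.0710% of all genes passed by edgeR. The member with the lowest p was Bcl2l11, whose difference was 0.42 lower on the log2 scale in PyMT-Dll1GFP than in PyMT-Dll1mCh mice (log2 -0.42, SE 0.124, adjusted p = 0.25). For Bid the PyMT-Dll1GFP minus PyMT-Dll1mCh value was -0.50 (SE 0.204, adjusted p = 0.384), and for Bcl2 it was 0.14 (SE 0.119, adjusted p = 0.683). The larger fall of Bid in PyMT-Dll1GFP mice was therefore not shown to differ between the lines.

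Levels at the same Dll1 status were also compared between the reporter lines, with 2 mice against 2. This fit had no mouse term, so that the Dll1+ and Dll1- library of a mouse counted as separate when the spread was estimated. In Dll1- cells Bax (log2 difference 0.80, SE 0.183, adjusted p = 0.0155), Bak1 (0.55, SE 0.142, adjusted p = 0.0236) and Bad (0.47, SE 0.114, adjusted p = 0.0183) were higher in PyMT-Dll1mCh mice, and Bcl2 (-0.90, SE 0.161, adjusted p = 0.00675) and Bcl2l11 (-1.16, SE 0.134, adjusted p = 0.00207) were lower. These are 3 members higher and 2 lower by edgeR's test, where 18.7% and 17.9% of all genes passed. In Dll1+ cells the same 5 differed in the same directions, Bax by 0.59, Bak1 by 0.58, Bad by 0.45, Bcl2 by -1.05 and Bcl2l11 by -0.73 (adjusted p from 0.00658 to 0.0482), and Pmaip1 was higher as well (1.32, SE 0.394, adjusted p = 0.0443). That makes 4 members higher and 2 lower, where 15.2% and 15.4% of all genes passed. Bcl2l1, Bbc3, Mcl1 and Bid did not pass at either status, with log2 differences of 0.068, -0.026, -0.41 and 0.032 in Dll1- and of 0.14, -0.064, -0.23 and 0.50 in Dll1+ cells.

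The separation between the lines was complete for several members. All 4 PyMT-Dll1mCh libraries lay above all 4 PyMT-Dll1GFP libraries for Bax, Bak1, Bad and Pmaip1 (21.5% of all tested genes) and below them for Bcl2l11 (21.8%). Bax was at 42.9 to 61.9 CPM in PyMT-Dll1GFP and at 77.6 to 86.9 CPM in PyMT-Dll1mCh libraries, and Bcl2l11 at 92.3 to 123 CPM against 42.9 to 77.0 CPM. Pmaip1 was at 2.82 to 4.81 CPM against 5.33 to 12.6 CPM, with the highest levels in mouse 4. Marker sums of fibroblasts and pericytes, immune, endothelial and erythroid cells were likewise higher in all 4 PyMT-Dll1mCh libraries, and their part in these results was not tested. A fit without 1 mouse leaves 1 mouse in its line and takes the spread from the other line. The adjusted p values without a mouse that follow therefore do not show how far the mice of that line agree. With mouse 1 or mouse 2 left out, 0 of all tested genes passed by edgeR in either comparison between the lines (4492 to 5587 at an unadjusted p under 0.05), so that the loss of the members' calls there says nothing about them. Without mouse 1 the adjusted p of the 5 members in Dll1- cells lay between 0.0752 and 0.173, and without mouse 2 between 0.0695 and 0.228. In Dll1+ cells the 6 members had 0.119 to 0.238 without mouse 1 and 0.131 to 0.281 without mouse 2. Without mouse 3, Bax and Bak1 in Dll1- cells (0.0622 and 0.0542) and Bax and Bad in Dll1+ cells (0.122 and 0.0633) did not pass, while Pmaip1 in Dll1- cells did (0.00342). Without mouse 4, Bax in Dll1+ cells had 0.0929, whereas Mcl1 in Dll1- cells (0.0267) and Bid in Dll1+ cells (0.0309) passed. Bax in Dll1+ cells also missed the threshold with RLE size factors (0.0525). When the libraries of 1 Dll1 status were fitted alone, Bak1 in Dll1- cells (0.0645) and Bax and Bad in Dll1+ cells (0.0831 and 0.0704) did not pass, and Bid in Dll1+ cells did (0.0484).

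**Figure D5:**
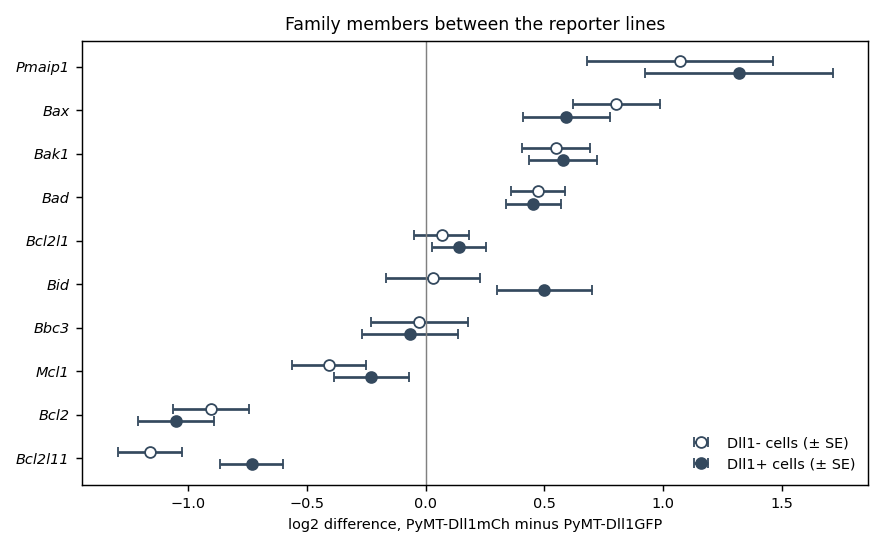
Log2 difference between PyMT-Dll1mCh and PyMT-Dll1GFP mice for each member, in Dll1- (open) and Dll1+ cells (filled), with the SE of edgeR's fit (2 mice against 2). Pmaip1, Bax, Bak1 and Bad lie above 0 and Bcl2 and Bcl2l11 below 0 at both Dll1 states.

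Of 15 other BCL2 family genes, Hrk and Bcl2l10 were too low to be tested, and 1 of the remaining 13, the BH3-only gene Bik, passed in the comparison over 4 mice by edgeR, where 6.98% of all genes were higher and 7.04% lower. Bik rose from 13.2 ± 1.39 to 20.6 ± 1.58 CPM (SD, n = 4 mice), a log2 difference of 0.64 (SE 0.0789, adjusted p = 0.00932 by edgeR), with similar values in PyMT-Dll1GFP (0.63) and PyMT-Dll1mCh mice (0.66), but an adjusted p of 0.0517 without mouse 1 and of 0.0548 without mouse 3. Bmf, a BH3-only gene of cells that lose their anchorage, was lower in Dll1+ cells of PyMT-Dll1GFP mice (-0.74, SE 0.135, adjusted p = 0.0292) and had 0.12 in PyMT-Dll1mCh mice, with an adjusted p of 0.17 for the difference between the lines. Bnip3, a BH3-like gene of mitophagy, had 0.30 with an adjusted p of 0.0539, and passed with RLE size factors (0.0478), with at least 10 counts in every library (0.0452) and by DESeq2 (0.0104). Among survival genes of this list, Bcl2l2 had 0.12 over 4 mice. Bcl2a1a, Bcl2a1b and Bcl2a1d had -0.38, -0.67 and -0.30, and none of these genes passed by edgeR. Bcl2a1b, at 0.763 to 6.57 CPM over the libraries, was lower in Dll1+ cells of PyMT-Dll1mCh mice (-1.185, SE 0.289, adjusted p = 0.0491 by edgeR). It had -0.0056 in PyMT-Dll1GFP mice, with an adjusted p of 0.34 by edgeR for the difference between the lines. The immune marker sum also fell from Dll1- to Dll1+ cells, from 534 to 251 CPM in mouse 3 and from 559 to 256 CPM in mouse 4. The part of immune cells in the Bcl2a1b difference was not tested. The median log2 difference of the 13 genes over 4 mice was -0.10.

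Downstream of the mitochondrion, 0 of 17 genes of the caspase pathway were higher in Dll1+ cells over 4 mice and 3 were lower by edgeR, with a median of -0.12, against 6.98% and 7.04% of all tested genes. Htra2, a protease released from mitochondria, fell by 0.60 on the log2 scale (adjusted p = 0.00679), Parp1, a DNA repair enzyme that caspases cleave, by 0.51 (adjusted p = 0.0113), and Aifm1, a mitochondrial flavoprotein, by 0.32 (adjusted p = 0.0296). Without mouse 1 or 3 Parp1 had an adjusted p of 0.0593 or 0.060, and Aifm1 had 0.0981, 0.0799 and 0.113 without mouse 1, 2 or 3. DESeq2 also called Dffa lower (-0.20, adjusted p = 0.0143). The initiator Casp9 did not pass. Casp2 did not pass over 4 mice by edgeR, but was higher in PyMT-Dll1mCh mice (0.35, SE 0.0736, adjusted p = 0.0349 by edgeR). It had 0.053 in PyMT-Dll1GFP mice, with an adjusted p of 0.311 by edgeR for the difference between the lines. Of 5 inhibitor of apoptosis genes, 1 passed by edgeR, Birc5 (survivin), which fell by 1.06 (SE 0.102, adjusted p = 0.00633) and is also known for its role in cell division. DESeq2 also called Xiap (0.23, adjusted p = 0.0369) and Birc2 (0.18, adjusted p = 0.0417) higher, and Xiap passed by edgeR without mouse 4 (0.0289). Of 8 death receptor genes, Fas rose by 0.48 (SE 0.12, adjusted p = 0.0493), and its adjusted p was 0.145, 0.133 or 0.199 without mouse 1, 2 or 3.

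Of 15 transcription factors known to act on BCL2 family genes, 4 rose and 2 fell in Dll1+ cells over 4 mice by edgeR, against 6.98% and 7.04% of all tested genes. The stress factor Ddit3 (CHOP) rose by 0.73 (SE 0.0575, adjusted p = 0.00534) and did so in each mouse, with 0.70, 0.78, 0.64 and 0.80 on the log2 scale. The p53 relatives Trp73 (2.77, adjusted p = 0.00825) and Trp63 (1.08, adjusted p = 0.0461) rose too, Trp73 from a mean of only 0.126 CPM, and the NF-κB subunit Relb rose by 0.35 (adjusted p = 0.0257). The NF-κB subunits Nfkb1 (0.17, adjusted p = 0.196) and Rela (0.26, adjusted p = 0.09) did not pass by edgeR, although both were higher in Dll1+ cells of each mouse. Trp53 itself, upstream of Bbc3 and Pmaip1, did not pass. E2f1 fell by 0.79 (adjusted p = 0.0145) and Stat5a by 0.37 (adjusted p = 0.0321). Some of these calls depended on the setting or on single mice. DESeq2 gave no adjusted p for Trp73, which had 0.0617 by edgeR in PyMT-Dll1GFP mice alone. Trp63 had an adjusted p of 0.125 by edgeR with no filter. Trp73 had an adjusted p of 0.064 without mouse 3, Trp63 had 0.117, 0.107 and 0.0953 without mouse 1, 3 or 4, E2f1 had 0.0623 and 0.0795 without mouse 1 or 3, and the adjusted p of Relb (0.0509 to 0.117) and Stat5a (0.0555 to 0.101) missed the threshold without any 1 of mice 1 to 4. Among 6 genes listed for turnover of the MCL1 protein, Trib1, a pseudokinase best known as an adaptor of the COP1 ubiquitin ligase, rose by 0.65 (SE 0.0705, adjusted p = 0.00725), and the ligases and the deubiquitinase Usp9x did not pass by edgeR, while Usp9x had an adjusted p of 0.0291 by DESeq2 (log2 difference 0.16).

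Genes that moved most like the members over the libraries were also named, by Pearson's r of log2 CPM after each mouse's mean was subtracted, among 11743 tested genes that averaged 5 CPM or more. These r values rest on 4 differences, 1 per mouse, and are descriptions. For Bcl2 the closest were Acbd4 (r = 0.9999), Pof1b (0.9994) and Serinc3 (0.9994), and 150 genes had an r over 0.99. The closest to Bbc3 were Fam110c, Whamm and Slc25a33, and to Bcl2l1 Tmub2, Slc38a9 and Rab14, with 51 and 41 genes over 0.99.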

How the data were processed

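RNA libraries were made with the Illumina TruSeq Stranded kit. The authors mapped reads with salmon to GENCODE M20 transcripts (GRCm38.p6), collapsed them per gene with tximport and deposited the resulting estimated counts, which are whole and not normalized. Salmon's version was not given in the sources used here. Groups, and the mouse that pairs libraries, came from the sample labels, and 0 columns belonged to no sample. Of 53697 gene IDs, 53668 matched a symbol without the version suffix. Coordinates and lengths are those of GENCODE M21 (GRCm38).

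Here, edgeR 4.0.16 in R 4.3.3 was run with TMM factors, filterByExpr on Dll1 status, a robust quasi-likelihood F test and Benjamini-Hochberg adjustment over 18322 genes (threshold 0.05). SE is the log2 difference over the square root of F. The models held the mouse and Dll1 status (as in the paper's methods), the mouse and 1 Dll1 effect per reporter, or 4 groups between lines. Log2 CPM per library used a prior count of 2, and ratios a pseudocount of 0.5. The libraries of a mouse share an animal, and their deviations from the group means correlated across genes at -0.05 in PyMT-Dll1GFP and 0.55 in PyMT-Dll1mCh mice. The scripts were tested on simulated counts. The least taken as detected, 3 counts, was 0.0242 to 0.11 CPM, for counting error only.

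Members and gene lists were chosen with earlier results of these data known. Named were all 10 members, list genes past the threshold or among the 4 lowest p of a list where they help the account, and the genes most like the 3 members with the lowest p. Bmf, Bnip3, Bcl2l2, Bcl2a1a, Bcl2a1b, Bcl2a1d, Xiap, Birc2, Nfkb1, Rela, Usp9x and the caspases were named after their values were seen. The NF-κB consensus searched was set after matches to other letters in the same windows had been seen. Alternatives were RLE factors, DESeq2 1.42.0, no filter, a minimum of 10 counts in each library, a fit with the mouse block omitted, each reporter or Dll1 status alone, each mouse left out, and, added after the data were seen, PyMT-Dll1GFP mice alone for the comparison over 4 mice.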

Additional observations from a re-analysis of the deposited data

Results flagged for a closer look

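In the Dll1- cells, Bcl2l1 was lowest in mouse 2, and the gap of that library to the next one was 0.986 of the range of the 4 libraries on the log2 CPM scale. The other 3 libraries were within 121.6 to 121.7 CPM and mouse 2 had 110.5 CPM, so that the flag reflects how close those 3 were. It was 1 flag in 30 groups of 4 libraries, and chance flags about 1 in 20. The effect of Dll1 status differed between the reporter lines for the macrophage marker Lyz2 (adjusted p = 0.0356 by edgeR) and the pericyte marker Rgs5 (adjusted p = 0.0233), which were lower in Dll1+ cells of PyMT-Dll1mCh mice, at log2 differences of -1.21 and -1.20 for Lyz2 and -2.86 and -3.05 for Rgs5, and had 0.035 and 0.068 for Lyz2 and -0.11 and 0.42 for Rgs5 in PyMT-Dll1GFP mice. No family member differed in this way.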

How the results depend on the processing

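Bcl2 was past the threshold over 4 mice under 10 of 10 alternatives, and no other member was. Over all comparisons and alternatives, 472 member values kept their direction and their side of the threshold, 56 lost the call with the same direction, 24 gained it and 18 changed direction. Genes past the threshold over 4 mice numbered 2568, of which 5 were members. DESeq2 gave 4362 and 8 (Mcl1, Bak1 and Pmaip1 in addition), the fit with no replicate block 1352 and 3 (Bcl2, Bcl2l1 and Bid, with adjusted p of 0.0579 for Bcl2l11 and 0.105 for Bbc3), and leaving out a mouse 398 to 2377 and 1 to 4. PyMT-Dll1GFP mice alone gave 3 members (Bcl2, Bid and Bbc3). In PyMT-Dll1GFP mice, 1673 genes and 2 members became 3001 and 4 with no filter, 274 and 1 with no replicate block, and 2 to 2346 and 0 to 3 without a mouse (5 members at an unadjusted p under 0.05 without mouse 1 and 5 without mouse 2). In PyMT-Dll1mCh mice, 2154 genes and 2 members became 3637 and 4 with no filter, 212 and 1 with no replicate block, 917 to 1297 and 2 to 3 without a mouse, and 0 and 0 by edgeR when that line was fitted alone (5144 genes and 7 members at an unadjusted p under 0.05), and DESeq2 called 4 members. The difference between the lines went from 13 genes to 540 with DESeq2, 1143 with no filter, 44 with at least 10 counts in every library, 0 with no replicate block (1309 at an unadjusted p under 0.05) and 0 to 682 without a mouse, with 0 members throughout. Between the lines, leaving out a mouse gave 0 to 7910 genes and 0 to 6 members in Dll1- cells, and 0 to 6933 and 0 to 6 in Dll1+ cells, with 0 by edgeR without mouse 1 or 2 (3 to 5 members and 4492 to 5587 genes at an unadjusted p under 0.05). A fit that leaves 1 mouse in a line takes its spread from the other line. The cause of these changes was not tested.

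The values that changed direction missed the threshold both before and after the change. Without a mouse in turn, Bax ranged from -0.12 to 0.14 over 4 mice, from -0.26 to 0.53 in PyMT-Dll1GFP and from -0.15 to 0.00072 in PyMT-Dll1mCh mice, and its difference between the lines from -0.21 to 0.58. That difference ranged from -0.26 to 0.11 for Bcl2l1, -0.16 to 0.095 for Bak1, -0.0067 to 0.18 for Bbc3 and -0.041 to 0.077 for Bad. Between the lines in Dll1- cells, Bbc3 ranged from -0.19 to 0.13 (0.016 with no filter), Bid from -0.32 to 0.32 and Bcl2l1 from -0.00028 to 0.14, and Bbc3 in Dll1+ cells from -0.37 to 0.13. Over 4 mice, Birc3 ranged from -0.18 to 0.073 and Tnfrsf1a from -0.19 to 0.023. In PyMT-Dll1GFP mice alone they had 0.22 and 0.12, and Bcl2a1b, Tek, Pecam1 and Cdh5, negative over 4 mice, had 0.0077, 0.066, 0.045 and 0.049. Pmaip1 had the lowest count of the members, 2519 over 8 libraries.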
